A study of Rattus norvegicus with 7 samples.

Results

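The subunits of protein phosphatase 2A were measured in the whole brain of alcohol-preferring (P) and alcohol non-preferring (NP) rats. Of 8 rat genes listed for catalytic, scaffold and regulatory subunits, 6 had probes assigned to one of their RefSeq transcripts. These were 8 probes of the 33849 for transcripts, and in all, 6046 genes were named. Expression of Ppp2r2a and Ppp2r2b was not analysed here. Of the 8 probes, 7 passed the filter on dim probes, which asks for a spot over background in 3 or more rats, and were tested, for 5 genes. The family was selected on the measured P against NP difference of 1 Ppp2r2d probe, which had been called, so the differences between the lines are descriptions. Where a call of that probe is given, it shows only how the selecting value depends on the arrays and settings used, and it supports nothing. In short, that probe read higher in every P rat than in any NP rat, as did 6.91% of tested probes with a value on every array. The other probe of the same gene did not. No probe of a catalytic or scaffold subunit was called between the lines, where 0.29% of all tested probes were, so that count is near the background.

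There were 4 P rats, numbered 1 to 4, and 3 NP rats, numbered 2 to 4. All were adult Wistar-derived males that had been housed in pairs and never given alcohol, and the lines come from selective breeding on alcohol drinking. Biotin-labelled RNA of 1 rat was hybridized to each 1-colour array, and the submitters dropped an NP array in quality control. Arrays limit the precision by their number. The scanner files carry 3 dates in their headers, called file dates here without knowing whether scanning or export was dated. File date 1 covers NP 2, NP 3, P 1 and P 2, file date 2 covers NP 4, and file date 3 covers P 3 and P 4.

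Protein phosphatase 2A is a major serine/threonine phosphatase of brain. Its core pairs a catalytic subunit (Ppp2ca or Ppp2cb) with a scaffold of HEAT repeats (Ppp2r1a or Ppp2r1b), and a regulatory subunit directs the complex to substrates. The B55 family (Ppp2r2a to Ppp2r2d) are regulatory subunits folded as propellers. Complexes with B55 remove phosphate from the microtubule protein tau. They also drive the exit from mitosis, when Ensa and Arpp19, phosphorylated by the kinase Mastl, no longer hold them back.

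The upstream sequence of Ppp2r2d is shown because the results turn on this gene, and that of Ppp2ca because it holds the same element. Both come from RefSeq on build GRCr8, run 5′ to 3′ over the 250 bases before the annotated start, and have the cAMP response element TGACGTCA in capitals.
Ppp2r2d, chr1:203095332-203095581, + strand: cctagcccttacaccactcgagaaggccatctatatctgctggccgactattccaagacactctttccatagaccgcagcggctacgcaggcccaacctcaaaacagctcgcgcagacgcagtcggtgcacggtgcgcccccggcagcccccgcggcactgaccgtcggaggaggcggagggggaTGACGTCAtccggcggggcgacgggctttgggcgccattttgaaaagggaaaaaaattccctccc
Ppp2ca, chr10:36858787-36859036, + strand: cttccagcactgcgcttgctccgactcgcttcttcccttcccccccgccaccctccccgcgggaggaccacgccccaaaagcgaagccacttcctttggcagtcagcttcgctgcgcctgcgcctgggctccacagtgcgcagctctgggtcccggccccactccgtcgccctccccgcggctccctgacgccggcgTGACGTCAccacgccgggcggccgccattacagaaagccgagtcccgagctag

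The element begins 65 bases before the start in Ppp2r2d and 53 bases before it in Ppp2ca. Both strands were searched, and the element reads the same on each. It occurred in 1.59% of 33469 upstream windows of 250 bases. Of the 6 listed genes with a RefSeq promoter, these 2 held it. The GC box GGGCGG, present in 30.5% of windows, was found upstream of Ppp2ca, Ppp2r1a and Ppp2r2c, and the CCAAT box, present in 34% of windows, upstream of Ppp2r1a, Ppp2r1b and Ppp2r2b. The E box CACGTG (5.59% of windows) was in none of the windows of these genes. The core of the NRF1 motif (3.75% of windows) was in that of Ppp2ca. No matches of different motifs overlapped in these windows. These matches describe letters in a window, and the arrays do not bear on any factor bound there. The sequences of the probes were not used here, so the place of each probe in its transcript is not given.

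Ppp2r2d encodes the delta form of B55. Probe GE13432 of this gene gave a log2 normalized signal of 6.02 in NP 2, 5.98 in NP 3 and 6.34 in NP 4. In P it read 7.23 in P 1, 6.96 in P 2, 7.39 in P 3 and 7.76 in P 4. The lowest P rat thus lay above the highest NP rat. The P mean was 7.34 ± 0.34 (SD, n = 4). The NP mean was 6.12 ± 0.19 (SD, n = 3), which gives a difference of 1.22 ± 0.18 (SE) on the log2 scale. Over all 27255 tested probes with a value on every array, P and NP did not overlap for 13.3%, and P was the higher line for 6.91%.

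The NP signals of GE13432 were close to the floor of the arrays. The spot minus its local background was 15.2 in NP 2, 14.8 in NP 3 and 37.4 in NP 4, in scanner units. It was 91.2 in P 1, 54.5 in P 2, 149 in P 3 and 205 in P 4. These intensities were not normalized between arrays. That normalization lowered the log2 signal of GE13432 from 7.66 to 7.39 in P 3 and from 8.01 to 7.76 in P 4. In P 2 it raised the signal from 6.69 to 6.96. Of the NP arrays only NP 4 was above background, while all 4 P arrays were. Negative control spots had medians of 6.19 to 6.33 on the log2 scale before normalization between arrays, where GE13432 read 5.98 to 6.43 in NP. The size of the log2 difference moved with the background correction: it was 1.01 without any, 1.85 with a smaller offset of 16 and 2.60 with plain subtraction. In the values processed by the authors, whose further adjustment is unknown, it was 2.54.

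**Figure D1:**
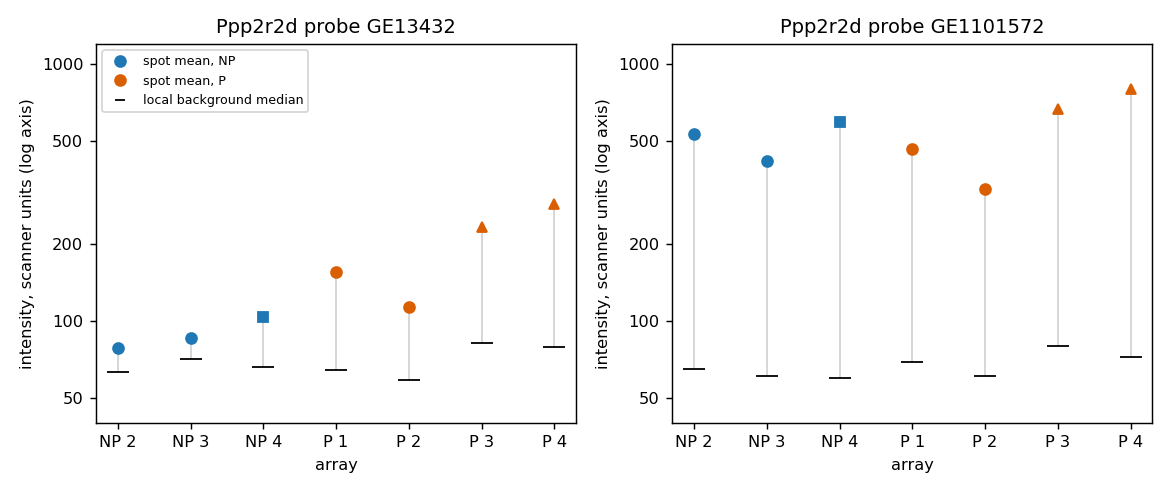
Spot mean (points) and median local background (black dashes) of the 2 Ppp2r2d probes on each array. The log axis is in scanner units, not normalized between arrays. Colour gives the line, and circles, squares and triangles give file dates 1, 2 and 3. For GE13432 the NP spots lie just over their background and all P spots lie higher, while for GE1101572 every spot is far over its background and the lines overlap.

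Probe GE1101572, designed on the same transcript accession, was above background on all 7 arrays. Its log2 signal was 8.98 in NP 2, 8.79 in NP 3 and 9.16 in NP 4, against 8.93 in P 1, 8.78 in P 2, 8.93 in P 3 and 9.34 in P 4. The lines overlapped, P 4 was highest and P 2 lowest. The difference was 0.02 ± 0.16 (SE), with a 95% interval from -0.32 to 0.37.

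The gap between the Ppp2r2d probes includes the value that selected the family, measured against NP spots of which 2 of 3 were not above background, so its size and rank are only a description. For 926 genes with exactly 2 tested probes, the line differences of the pair lay a median of 0.15 apart, and for the pair of Ppp2r2d 1.20 apart. Only Tmed9 (3.71) and Timm10 (1.49) had wider gaps, and Slc39a7 came next (1.14). In 3 of the 926 genes 1 probe was called between the lines, and in 0 genes both were, by limma at an adjusted p under 0.05. Ppp2ca, the other gene here with a pair, ranked 666 with a gap of 0.08.

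**Figure D2:**
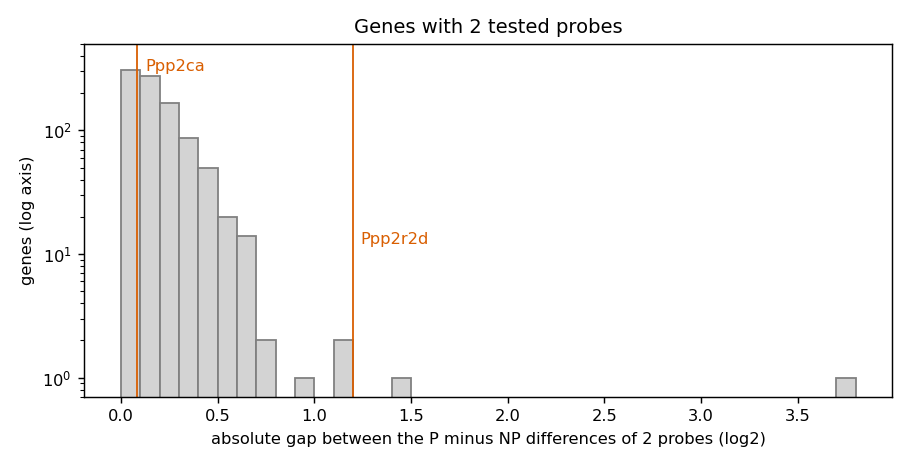
Absolute gap between the P minus NP log2 differences of the 2 probes of a gene (x axis), for 926 genes, in bins of 0.1 with a log axis for the number of genes. The line for Ppp2ca falls in the tall bins near 0, and that for Ppp2r2d at 1.20 has bars for only Tmed9 and Timm10 to its right.

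Within file date 1, where both lines are present with 2 rats each, GE13432 differed by 1.09 ± 0.14 (SE) and GE1101572 by -0.03 ± 0.14. With all 4 P and 3 NP rats, GE13432 was the 1 called probe of the 7 tested, where 0.29% of all 29003 probes were called (0.134% as higher in P). Since this call is what brought the family forward, nothing is read from the count. The probe was not called without NP 2, NP 3, NP 4 or P 1, where its difference was 1.17, 1.15, 1.33 and 1.25. It was called without P 2, P 3 or P 4 (1.35, 1.20 and 1.08).

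In gene order on chromosome 1 of GRCr8, Ppp2r2d lies between Mapk1ip1, which had no named probe, and Bnip3. The protein of Bnip3 sits on mitochondria and takes part in their removal. Bnip3 follows Ppp2r2d and lies on the other strand, so that the 3′ ends of Ppp2r2d and Bnip3 face each other. The log2 signal of Bnip3 lay between 9.91 and 10.34 in P and between 6.46 and 7.29 in NP, a difference of 3.15 ± 0.19 (SE). Of the 20 genes nearest to Ppp2r2d (10 on each side), only Bnip3 and Glrx3, a glutaredoxin at the ninth place before it, had a named probe. Glrx3 differed by 0.36 ± 0.26 (adjusted p = 0.582 by limma). Bnip3 was known as a strongly differing gene when the neighbours were looked up, and whether position has a part in the result was not tested.

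The profile of GE13432 over the 7 arrays, centred on its mean, was nearest to that of Camk2b, a subunit of a calcium-activated kinase, with a root mean square distance of 0.30 log2 units. Isca1 (0.30), Srek1ip1 (0.30), Picalm (0.33) and P4hb (0.33) followed. The median distance over 6267 named probes was 0.67. Since most of that profile is the difference between the lines, closeness to it fixes that these genes read higher in P, by 0.70 (Isca1) to 0.87 (Picalm), and nothing is read from it. For GE1101572 the nearest were Pgk1 (0.05), Tgoln2 (0.06), Mark1 (0.07), Rgs7bp (0.07) and Epdr1 (0.07), with a median distance of 0.27 over the same probes. The likeness lists of the 2 probes of this gene share no member, which could be foreseen from their unlike line differences, so nothing is read from it.

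Ppp2r2c encodes the gamma form of B55, which is enriched in brain. Its only probe here, GE19493, was above background in P 1 alone and was not tested. Its log2 signal ranged from 5.69 to 6.19 in NP and from 5.97 to 6.35 in P. Before normalization between arrays it ranged from 5.69 to 6.18 in NP and from 5.98 to 6.31 in P. The negative control medians on that scale were 6.19 to 6.33. These values set no level for Ppp2r2c in either line.

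The catalytic subunits were bright on every array. Ppp2ca encodes the alpha catalytic subunit, and its probe GE20296 read 9.71 in NP 2, 9.60 in NP 3 and 9.52 in NP 4. In P it read 9.33 in P 1, 8.63 in P 2, 9.71 in P 3 and 9.98 in P 4. The P values spread on both sides of the NP values, and P 2 was lowest. The difference between the lines was -0.20 ± 0.26 (SE), with a 95% interval from -0.78 to 0.39, and it was 0.06 without P 2.

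The second Ppp2ca probe, GE22108, read 12.26 in NP 2, 12.01 in NP 3 and 12.27 in NP 4, against 12.01 in P 1, 11.63 in P 2, 12.45 in P 3 and 12.17 in P 4. P 2 was again the lowest array, and the lines overlapped. The difference was -0.11 ± 0.18 (SE), with a 95% interval from -0.51 to 0.29.

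Ppp2cb encodes the beta catalytic subunit. Probe GE20297 read 10.06 in NP 2, 10.53 in NP 3 and 10.15 in NP 4, against 10.00 in P 1, 9.80 in P 2, 10.29 in P 3 and 10.52 in P 4. P 2 was lowest here too, and the highest P rat and the highest NP rat were level. The difference was -0.09 ± 0.18 (SE), with a 95% interval from -0.50 to 0.31.

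Ppp2r1a encodes the alpha scaffold, the main scaffold of most tissues. Probe GE16454 read 11.79 in NP 2, 11.37 in NP 3 and 11.32 in NP 4, against 11.06 in P 1, 11.47 in P 2, 11.23 in P 3 and 11.57 in P 4. NP 2 was highest and P 1 lowest, with overlap between the lines. The difference was -0.16 ± 0.16 (SE), with a 95% interval from -0.53 to 0.20.

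Ppp2r1b encodes the beta scaffold. Probe GE1206828 read 8.00 in NP 2, 8.32 in NP 3 and 8.11 in NP 4, against 8.20 in P 1, 8.38 in P 2, 7.85 in P 3 and 7.96 in P 4. P 1 and P 2 were above P 3 and P 4 for this probe, and the NP rats lay among them. The difference was -0.05 ± 0.15 (SE), with a 95% interval from -0.38 to 0.29. Since the samples are bulk RNA, fewer cells of a type and less RNA per cell cannot be told apart for any of these genes.

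**Figure D3:**
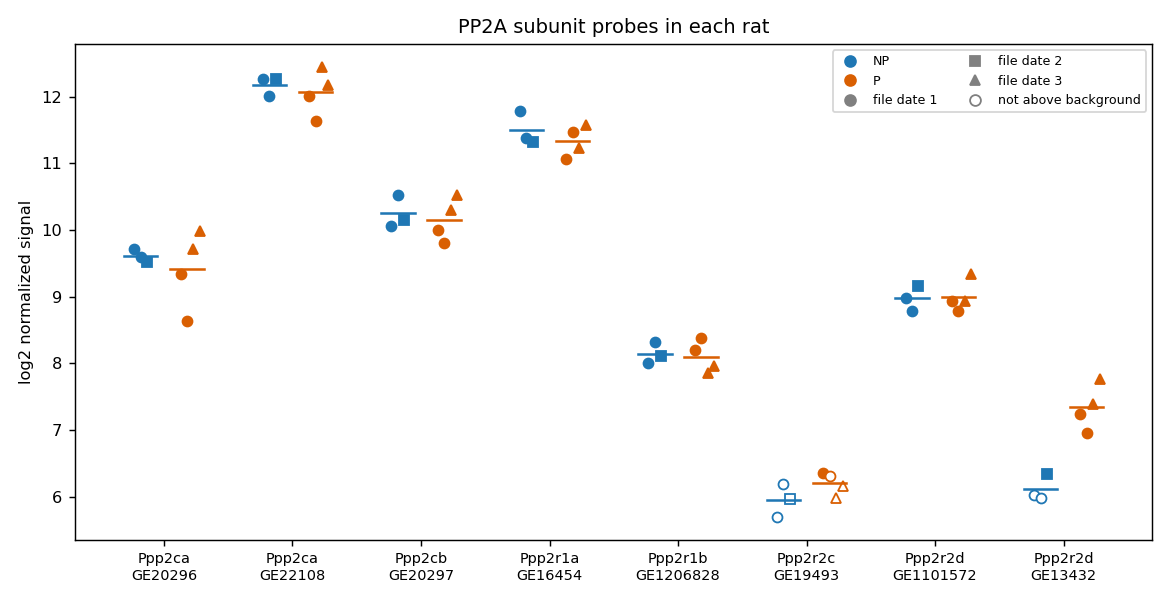
Log2 normalized signal (y axis) of the 8 probes in each rat, NP in blue and P in orange, with a bar at each mean; symbols give the file date, and open symbols mark spots not above background. Only GE13432 has every P point above every NP point, and GE19493 is open on all arrays but P 1. Levels of different probes are not comparable.

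Leaving GE13432 aside, the line differences of the tested subunit probes ran from -0.20 to 0.02. The median over all 7 tested probes was -0.09, beside 0.01 over all probes of the array. Within file date 1 the catalytic probes differed more, by -0.67 ± 0.21 (SE) for GE20296, -0.31 ± 0.16 for GE22108 and -0.39 ± 0.17 for Ppp2cb. The scaffold Ppp2r1a differed there by -0.31 ± 0.18 and Ppp2r1b by 0.13 ± 0.15. Within that date 1 of the 7 probes was called, GE13432, where 6.4% of all probes were, and the median of the 7 was -0.31 against 0.03 over all probes. With file date as a block 5.72% of all probes were called, and GE13432 was the 1 called member. The other file dates each hold only P or only NP. The block fit therefore takes the line difference from file date 1 alone, and its differences for these probes equal those within that date. The arrays of file date 1 are among the ones that selected GE13432, so nothing is read from its call in either fit.

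The comparison of P rats by file date was not used to choose these genes and was tested with limma over all probes, with the NP arrays kept for the estimate of the spread. In P 1 and P 2 the Ppp2ca probe GE20296 was lower than in P 3 and P 4 by -0.86 ± 0.20 (SE, adjusted p = 0.0179). It was the 1 called member of 7, while 14% of all probes were called and 7.6% were called as lower in P 1 and P 2, so that count is near the background. The call was lost without P 2 (-0.51, adjusted p = 0.164), P 3 (-0.99, adjusted p = 0.0515) or P 4 (-0.73, adjusted p = 0.0889). Over its alternatives the adjusted p ran from 0.00895 to 0.164. The share of all probes called by file date also hung on single rats and was 7.95% without P 1, 1.19% without P 2, 3.66% without P 3 and 9.41% without P 4. It was 4.09% with plain subtraction and 4.88% in the authors' values.

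The other catalytic probes had differences of the same sign that missed the threshold. GE22108 of Ppp2ca differed by -0.49 ± 0.17 (adjusted p = 0.0751 by limma) and Ppp2cb by -0.50 ± 0.17 (adjusted p = 0.0747 by limma). Scaffold Ppp2r1b differed by 0.39 ± 0.15 (adjusted p = 0.105 by limma) and Ppp2r1a by -0.14 ± 0.20 (adjusted p = 0.69 by limma). For Ppp2r2d the differences were -0.48 ± 0.18 with GE13432 (adjusted p = 0.0907 by limma) and -0.28 ± 0.17 with GE1101572. In all, 6 of the 7 probes were lower in P 1 and P 2 on average, with 2 probes each for Ppp2ca and Ppp2r2d. The median of the 7 was -0.48, beside 0.03 over all probes. With 2 rats a date, the date and the pair of rats cannot be told apart.

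**Figure D4:**
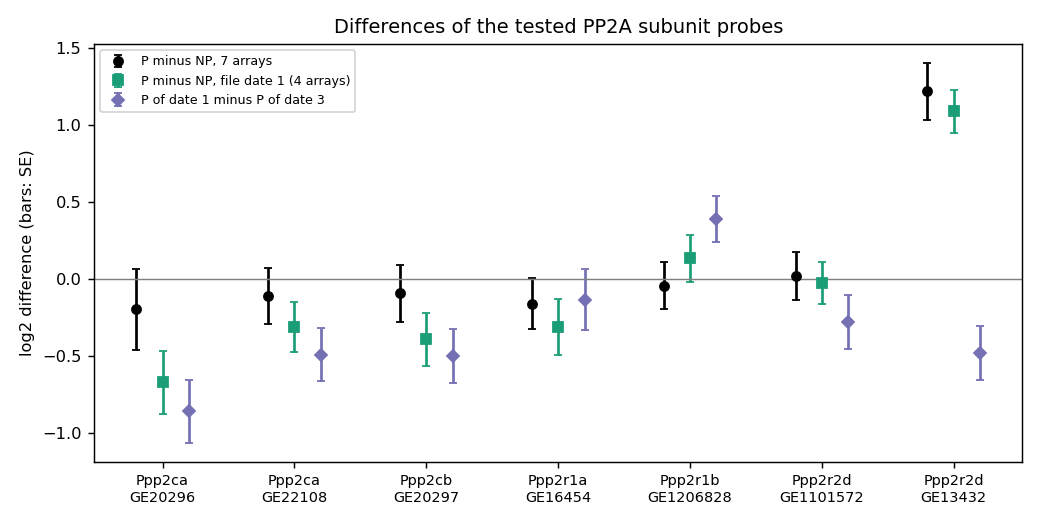
Log2 differences (points) with their SE (bars) of the 7 tested probes: P minus NP over 7 arrays (black), P minus NP within file date 1 (green) and P of date 1 minus P of date 3 (purple). GE13432 is above 1 in both line comparisons; the catalytic probes lie below 0 in all 3, by up to -0.86.

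Other genes of the pathway were taken from 4 lists, of which 39 of 68 genes had a named probe and were tested. None was called between P and NP by limma, where 0.176% of all 5677 genes were, and 6 of the 39 had an unadjusted p under 0.05, as had 3347 of all 29003 probes. Their median difference was 0.07, against 0.03 over all genes. Of the 39 differences 22 were above and 17 below 0, from -0.66 to 0.49.

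Among 3 other regulatory subunits, Strn3, a striatin that ties the phosphatase to kinases, had the smallest p (-0.43 ± 0.15 (SE), adjusted p = 0.341 by limma). The others were Strn and the B56 subunit Ppp2r5b. Of 5 modifiers and inhibitors, the inhibitor Anp32a had the smallest p (-0.37 ± 0.15 (SE), adjusted p = 0.408 by limma). Ensa, which restrains B55 complexes in mitosis, differed by 0.08 ± 0.12 (adjusted p = 0.801 by limma). The median of the 5 modifiers and inhibitors was 0.17.

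Of 9 catalytic subunits of other phosphatases, Ppp3cb, a catalytic subunit of calcineurin, had the smallest p (-0.66 ± 0.25 (SE), adjusted p = 0.382 by limma). It was called with file date as a block (-0.95, adjusted p = 0.0164 by limma), as 5.56% of all genes were. That fit takes the line difference from file date 1 alone. A second tested Ppp3cb probe had a P minus NP difference 0.46 away, against a median gap of 0.15 over 926 genes. Without the block neither was called, and the second probe's values are not given here. The values of the brightest probe were 12.76, 12.51 and 13.03 in NP 2, NP 3 and NP 4, and 11.82, 11.55, 12.64 and 12.41 in P 1 to P 4. P 1 and P 2 lay below all others. Of 22 substrates and opposing kinases, the survival kinase Akt2 had the smallest p (0.49 ± 0.15 (SE), adjusted p = 0.316 by limma). Tau, encoded by Mapt, differed by -0.10 ± 0.14 (adjusted p = 0.79 by limma). Th rests on 3 arrays and Akt1 on 6, since flagged spots were dropped.

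Between the P rats by file date, 6 of 38 tested list genes were called by limma, while 15.7% of all genes were. Lower in P 1 and P 2 were Ppp3cb (-0.85 ± 0.18 (SE), adjusted p = 0.0117), the PP1 catalytic subunit Ppp1cb (-0.53 ± 0.15, adjusted p = 0.0346) and the PP6 catalytic subunit Ppp6c (-0.70 ± 0.18, adjusted p = 0.027). Higher were the kinase Gsk3a (0.67 ± 0.16, adjusted p = 0.0208), Ppp1r1b, the striatal phosphatase regulator DARPP-32 (0.65 ± 0.14, adjusted p = 0.0129), and Axin1, a scaffold of the beta-catenin destruction complex (0.50 ± 0.14, adjusted p = 0.0349). These p-values are from limma, and the share of list genes called was near that of all genes.

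**Figure D5:**
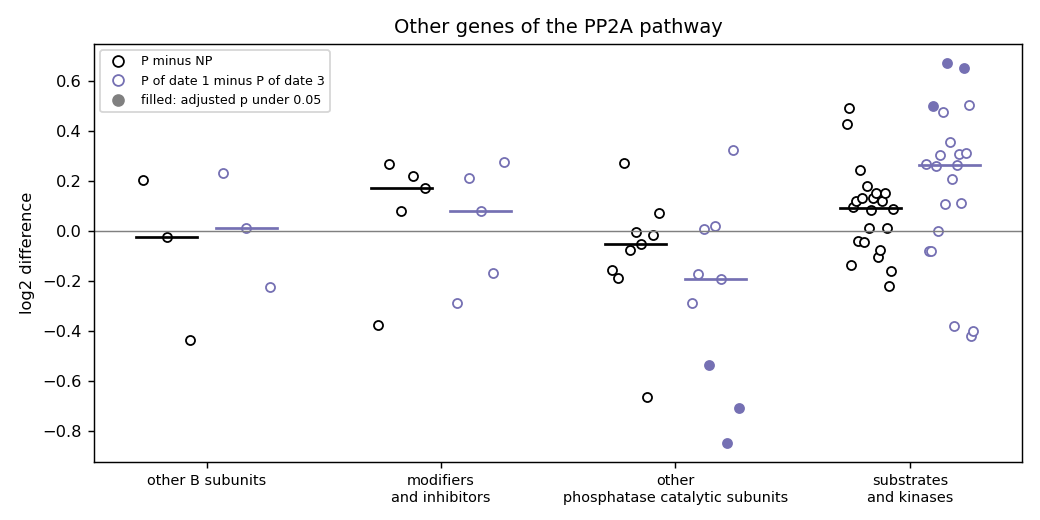
Log2 difference (y axis) of each tested gene of the 4 pathway lists: P minus NP (black) and P of file date 1 minus P of file date 3 (purple), with a bar at each list's median and filled points for an adjusted p under 0.05 by limma. No black point is filled; 3 purple points below 0 and 3 above 0 are.

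Most brain marker genes with a probe were above background on every array. Above background on all 7 arrays were 6 of 6 astrocyte, 5 of 6 oligodendrocyte and 4 of 5 microglia genes with a probe, and the neuronal genes Nefl, Stmn2 and Uchl1 of 4. Of 4 liver genes with a probe only Ttr, which choroid plexus also makes, was. Of 2 pituitary genes with a probe Cga was, and so was Alas2, the 1 erythroid gene with a probe. Whether other tissue or blood was present in the samples was not tested. The mean log2 signal of the marker lists overlapped between the lines, except for endothelium and meninges (4 genes, 9.43 to 9.57 in P and 9.24 to 9.33 in NP) and the liver list (3 genes, 8.07 to 8.23 in P and 8.24 to 8.54 in NP). For single probes over the whole array, P and NP did not overlap in 13.3%. Of the 34 tested marker genes, with Ttr counted in both the choroid plexus and liver lists, 0 were called between the lines by limma. Nothing is read from the lists that did not overlap. Spots above background made up 77.9% to 81.6% of the array in P and 81.5% to 85.9% in NP. The part of these in the Ppp2r2d values was not tested.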

How the data were processed

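Whole-brain RNA of 7 rats was measured on 1-colour arrays. Per the file headers, the deposited scanner tables give the mean spot intensity, the median background intensity and quality flags; the authors also deposited log2 values (medians -0.07 to 0.05) that tracked the log2 of each array's own scaled intensity (lowest r 0.9985). The scanner's software and any genome build: not given in the sources used here. The authors' further adjustment is unknown. Intensities were corrected with normexp (offset 50) and quantile normalized over 33849 transcript probes with limma 3.58.1 in R 4.3.3. Spots with flag M, C or I were dropped.

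The filter asked for 3 or more arrays above background and kept 29008 probes, of which 29003 could be fitted. The model used lmFit and eBayes, and Benjamini-Hochberg adjustment over all probes; a call is an adjusted p under 0.05. Accessions were matched to RefSeq transcripts of GRCr8, naming 7207 probes. A list gene is represented by its brightest probe. Named are all member probes, the gene with the smallest p and up to 3 called genes of each list, and the 5 nearest profiles; Ensa, Mapt, Th and Akt1 and the other regulatory subunits were added after their values were seen. The members and lists were chosen with earlier results of these data known. Alternatives changed the background correction, the normalization, the filter, the variance model, the file date and the arrays used. The fit was tested on simulated data. Replicates are separate rats. Figures were drawn with matplotlib 3.10.9.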

Additional observations from a re-analysis of the deposited data

How the results depend on the processing

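The difference of GE13432 kept its sign in all 22 alternatives that gave a value (0.98 to 2.60) and passed the threshold in 15. Every P value of this probe lay above every NP value, so leaving out arrays could not change the sign. The family was selected on this difference, so nothing is read from the sign or from the 15. Among the 22, the date block and file date 1 alone take the difference from the same rats and gave the same value (1.09). The replicate block leaves out P 1 and gave the same value as the fit without P 1 (1.25). GE13432 has no value when probes must be above background on all 7 arrays. The count of called subunit probes, 1, became 0 there, without background correction, with cyclic loess and in the authors' values, and lay between 0 and 1 with each array left out. GE13432 itself moved by more than the spread between rats with an offset of 16 (1.85), plain subtraction (2.60) and the authors' values (2.54); with an array left out it lay between 1.08 and 1.35. GE1101572 and the other tested subunit probes lay between -0.67 and 0.23 over 138 values and were called in 0 of them by limma.

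Over the whole array 84 probes were called (39 higher and 45 lower in P). The count was 49 for probes above background on all arrays, 154 with array weights, 51 in the authors' values, 1653 with file date as a block, 1847 within file date 1, 189 without P of date 1 and 3310 without P of date 3, and 51 to 121 with each array left out. Of the list genes 1 was called with the date block and 1 within date 1, where the line differences are the same, and 2 without P of date 3. Between P rats by date, 0 member probes were called with plain subtraction (4.09% of all probes) and in the authors' values (4.88%). With median scaling 2 were called (20.1% of all probes) and with cyclic loess 2 (13.5%). With an array left out 0 to 1 were called, beside 1.19% to 16.7% of all probes. Ppp2r1a differed there by -0.14, and by -0.34 to 0.073 with an array left out, reversing without P 1 (0.073) and P 4 (0.037).

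Replicate numbers are shared by the lines, and the deviations of same-numbered rats from their line means had r of 0.021 to 0.097. Rats of different numbers were not compared, so these values cannot decide whether the numbers mark pairs. The numbers were not taken as pairs. The replicate block used only rats whose number occurs in both lines, so P 1 was left out. With it 100 probes were called, 1 of them a subunit probe, and GE13432 differed by 1.25 and GE1101572 by 0.04. Both differences equal those of the fit without P 1. The cause of these shifts was not tested.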
